A study of Mus musculus with 6 samples.

Results

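The respiratory chain genes of mouse macrophages were followed across 3 treatments. The members were chosen by symbol: subunits of NADH dehydrogenase (complex I), succinate dehydrogenase (complex II), the cytochrome bc1 complex (complex III), cytochrome c oxidase (complex IV) and ATP synthase (complex V). The rule found 88 genes among the 55023 rows of the count table, 75 of them nuclear and 13 encoded in mitochondrial DNA. Of the nuclear genes, 35 belong to complex I, 4 to complex II, 8 to complex III, 11 to complex IV and 17 to complex V. Ndufa4 carries a complex I name but encodes a complex IV subunit and was counted there. The mitochondrial genes are 7 of complex I, 1 of complex III, 3 of complex IV and 2 of complex V. All 88 had enough reads to be tested.

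RNA sequencing was done on bone marrow-derived macrophages, which are grown in culture from marrow precursors, after 24 h with LCL161 together with LTα1β2, with LTα1β2 alone, or with vehicle, in 2 libraries each. LTα1β2 is the membrane form of lymphotoxin and binds the lymphotoxin β receptor. LCL161 is a SMAC mimetic, a small molecule that antagonises cIAP1 and cIAP2. No library of LCL161 alone was analysed here, so its effect was measured only on top of LTα1β2. The sources used here give no strain, age or dose, and do not say whether 2 libraries of a group come from separate cultures. The p-values set group differences against the spread between the 2 libraries of a group, estimated over all 3 groups. That spread can therefore be technical.

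Complexes I, III and IV pass electrons to oxygen and pump protons across the inner mitochondrial membrane. Complex II feeds electrons in from the tricarboxylic acid cycle, and complex V uses the proton gradient to make ATP. The catalytic centres of complexes III and IV and the proton-pumping membrane arm of complex I are encoded largely in mitochondrial DNA, as are a few membrane subunits of complex V. Most other subunits are encoded in the nucleus, so an assembled chain draws on both genomes. Macrophages activated by bacterial products are known for a shift towards glycolysis and for altered electron flow through the chain.

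The libraries held 14718368 to 19049613 counts, and 18812 genes were tested. All 10 macrophage markers averaged at least 1 CPM (counts scaled to a common library size with TMM factors), led by Lyz2. Genes of other cell types were also present and moved with the groups. Of 12 stromal markers tested, 11 were lower in each of the 3 comparisons. Summed over all 13 listed stromal markers, the level was 1554 ± 49.3 CPM with LCL161 plus LTα1β2. It was 5929 ± 1443 CPM with LTα1β2 and 14054 ± 3584 CPM with vehicle (SD, n = 2 each). The 13 made up 0.132% to 1.90% of a library's counts. Of all genes, 21.1% were called lower with LCL161 plus LTα1β2 against vehicle, 15.1% against LTα1β2, and 10.6% with LTα1β2 against vehicle. All 20 proliferation genes were lower with LCL161 plus LTα1β2 than in either other group, and their summed levels were 261, 776 and 1368 CPM with LCL161 plus LTα1β2, LTα1β2 and vehicle. The summed level of 10 neutrophil markers was 390 ± 15.6 CPM with LCL161 plus LTα1β2, 974 ± 165 CPM with LTα1β2 and 737 ± 204 CPM with vehicle. Tpsb2, a mast cell gene, had no read in any library. The part of these cells in the changes given here was not tested, and in bulk RNA fewer cells of a type and less RNA per cell cannot be told apart.

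Promoters are shown for 4 nuclear genes because respiratory chain genes are known for shared promoter elements. Cox8a, Sdhb and Ndufs3 had the 3 largest log2 changes with LTα1β2, and Ndufa4 is the one nuclear complex IV gene that passed in no comparison. Each sequence runs from 250 bases before to 50 after the first listed start (RefSeq, GRCm38.p6), 5′ to 3′ on the gene's strand, with capitals marking the ETS and GABP motif CCGGAAG and the NRF1 core motif GCGCATGC on either strand. Cox8a lies on the minus strand at chr19:7217567-7217866, Sdhb on the plus strand at chr4:140961021-140961320, Ndufs3 on the minus strand at chr2:90904672-90904971 and Ndufa4 on the minus strand at chr6:11907401-11907700.
Cox8a: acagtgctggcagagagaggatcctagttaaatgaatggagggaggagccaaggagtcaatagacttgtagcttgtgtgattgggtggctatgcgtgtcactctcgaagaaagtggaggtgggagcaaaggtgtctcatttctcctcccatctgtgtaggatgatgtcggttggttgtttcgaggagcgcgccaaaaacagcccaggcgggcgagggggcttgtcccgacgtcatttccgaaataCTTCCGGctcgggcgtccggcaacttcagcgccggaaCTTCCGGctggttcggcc
Sdhb: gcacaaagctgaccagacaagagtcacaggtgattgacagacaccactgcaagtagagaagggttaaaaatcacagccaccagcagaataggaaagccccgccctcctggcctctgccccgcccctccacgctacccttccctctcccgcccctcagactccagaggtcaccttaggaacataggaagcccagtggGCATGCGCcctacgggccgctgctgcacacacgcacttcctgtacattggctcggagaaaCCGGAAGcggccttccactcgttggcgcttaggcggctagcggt
Ndufs3: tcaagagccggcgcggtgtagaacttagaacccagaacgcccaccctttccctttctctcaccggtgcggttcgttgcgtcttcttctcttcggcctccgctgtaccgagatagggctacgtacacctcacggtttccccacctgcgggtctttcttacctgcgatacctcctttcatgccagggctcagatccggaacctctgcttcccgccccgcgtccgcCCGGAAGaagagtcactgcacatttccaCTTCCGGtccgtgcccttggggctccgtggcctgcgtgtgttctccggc
Ndufa4: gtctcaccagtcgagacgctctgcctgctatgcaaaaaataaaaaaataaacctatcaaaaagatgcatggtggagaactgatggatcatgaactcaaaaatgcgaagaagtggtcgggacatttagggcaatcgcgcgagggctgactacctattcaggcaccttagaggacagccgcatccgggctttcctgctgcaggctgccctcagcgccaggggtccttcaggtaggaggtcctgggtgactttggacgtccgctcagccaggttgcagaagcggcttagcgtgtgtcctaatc
The window held 2 matches of CCGGAAG in Cox8a and 2 in Ndufs3, 1 of each motif in Sdhb, and 0 in Ndufa4. A promoter was found for 62 of the 75 nuclear genes. CCGGAAG, read on both strands, stood in 16 of them (25.8%), against 9.12% of all 27025 promoters of the same length. GCGCATGC stood in 10 (16.1%, against 2.80% of all), the YY1 motif AAGATGGC in 8 (12.9%, against 2.88%) and the Sp motif GGGCGG in 24 (38.7%, against 35.9%). CCGGAAG and AAGATGGC can share the letters AAG where they adjoin. Among 9 complex IV promoters, 3 held CCGGAAG and 1 held GCGCATGC. A match describes letters in the window and not binding.

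The nuclear respiratory chain genes took a similar share of all counts in every library. The 75 genes made up 0.924% and 0.910% of counts with LCL161 plus LTα1β2, 0.911% and 0.922% with LTα1β2, and 0.922% and 0.872% with vehicle, so the groups overlapped. TMM factors, which scale the libraries on the assumption that most genes do not change, gave summed levels of 10185 ± 370 CPM with LCL161 plus LTα1β2, 9336 ± 78.8 CPM with LTα1β2 and 8012 ± 59.3 CPM with vehicle. On that scale the 3 groups did not overlap. The changes below are on the TMM scale. Scaling by total counts lowered the median log2 change of all genes to -0.26 for LCL161 plus LTα1β2 against vehicle, to -0.12 for LCL161 plus LTα1β2 against LTα1β2 and to -0.23 for LTα1β2 against vehicle, where TMM gave 0.05, 0.00 and -0.04. Relative to that median, the nuclear genes stood 0.34, 0.15 and 0.24 higher under both scalings. The TMM factors ran between 0.874 and 0.936 with LCL161 plus LTα1β2, stood near 0.984 with LTα1β2, and reached 1.15 with vehicle, and the part of the stromal counts in them was not tested.

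**Figure D1:**
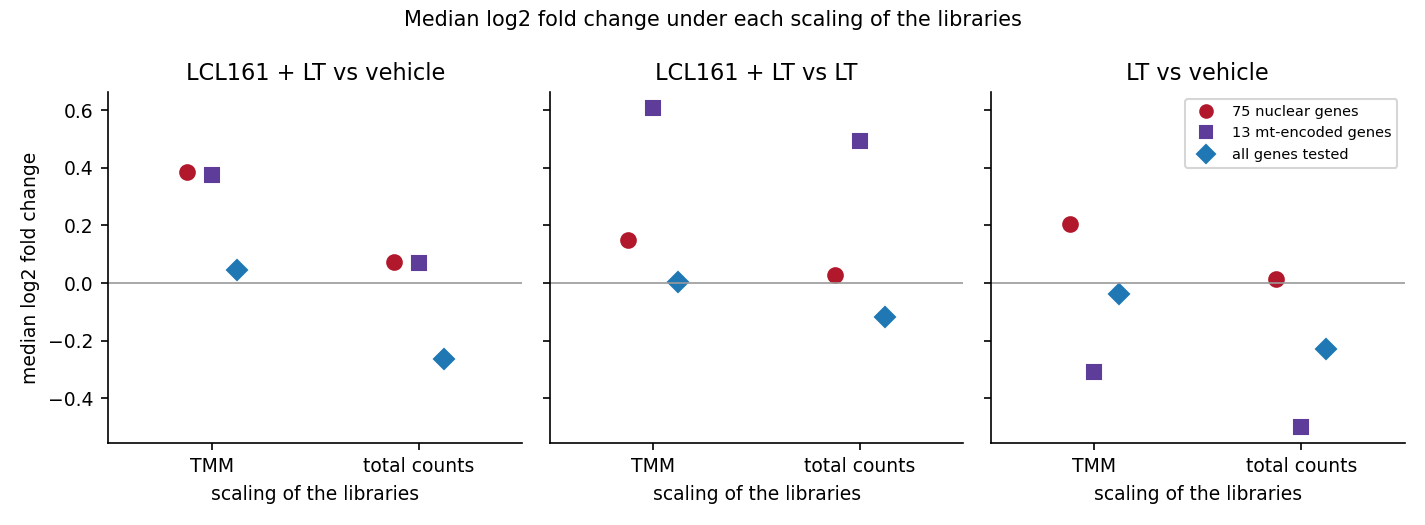
Median log2 fold change of the 75 nuclear genes, the 13 mitochondrial-encoded genes and all genes tested under TMM and under total-count scaling (edgeR). The nuclear median stands 0.34, 0.15 and 0.24 above the median of all genes in the 3 panels, from left to right, under both scalings, while its own value falls to 0.07, 0.03 and 0.01 under total counts.

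**Figure D2:**
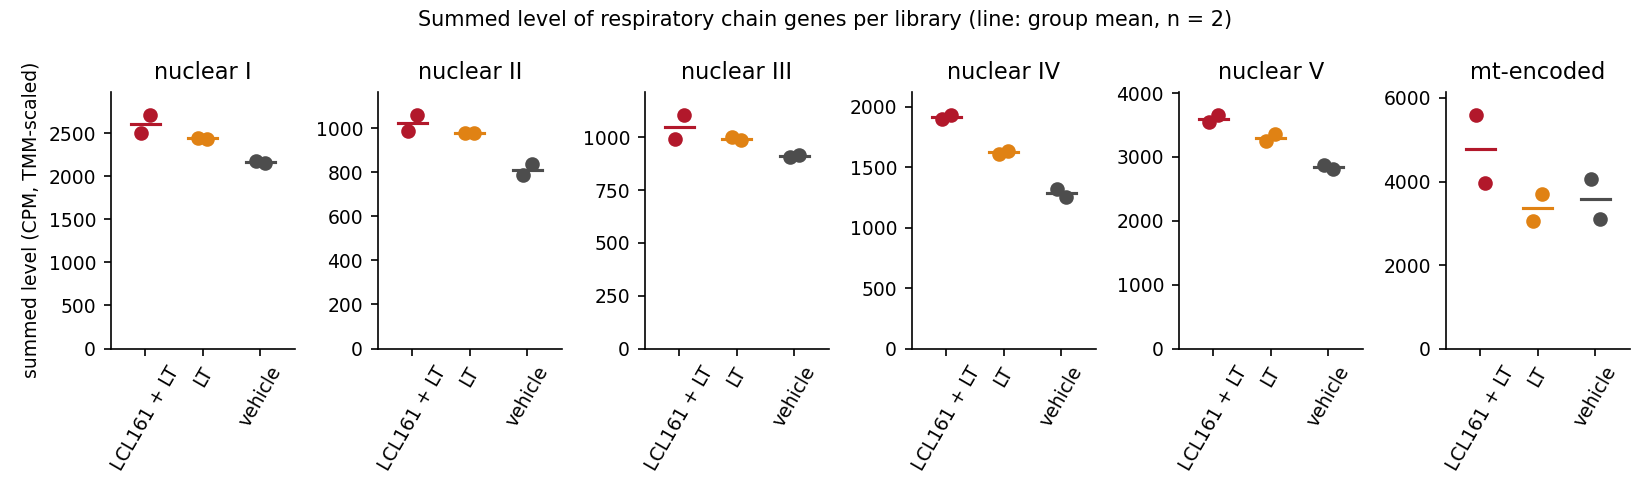
Summed level of the nuclear genes of each complex and of the 13 mitochondrial-encoded genes in each library (CPM scaled by TMM factors, linear axes from 0; points are libraries and lines group means of 2). Among the nuclear complexes, complex IV has the largest ratio of means between LCL161 plus LTα1β2 and vehicle (1.49), with 1912 CPM on average with LCL161 plus LTα1β2, 1623 CPM with LTα1β2 and 1284 CPM with vehicle, and the mitochondrial-encoded genes differ most between libraries of one group.

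With LTα1β2 alone, set against vehicle, 17 nuclear genes rose and 0 fell (edgeR, adjusted p under 0.05), and at an unadjusted p under 0.05 31 were higher and 0 lower. DESeq2 and limma voom also called 0 lower. That is 22.7% of the 75, against 23.4% of all genes tested called in either direction, 12.8% higher and 10.6% lower. The median log2 change of the 75 was 0.20, against -0.04 for all genes, and 57 of them (all genes, 29.6%) had both LTα1β2 libraries above both vehicle libraries. Under total counts 6 rose and Ndufa4 fell, and the median was 0.01. The 6 that rose under both scalings were Ndufs3, Ndufs7, Sdhb, Cox8a, Cox7b and Cox5a. The count was 7 without LTα1β2 replicate 1, 4 without LTα1β2 replicate 2, and 5 without either vehicle library.

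On the TMM scale, LTα1β2 raised 4 genes in complex I, 2 in complex II, 2 in complex III, 5 in complex IV and 4 in complex V. Under total counts it raised 2 in complex I, 1 in complex II, 0 in complex III, 3 in complex IV and 0 in complex V. Ndufs3, a core subunit of the matrix arm of complex I, had 75.2 and 77.6 CPM with LTα1β2 and 43.2 and 44.1 CPM with vehicle. Both LTα1β2 libraries were well above both vehicle libraries, a log2 change of 0.81 (SE 0.12, edgeR adjusted p = 0.00256). Its neighbour in that arm, Ndufs7, which binds the last iron-sulfur cluster before ubiquinone, had 128 and 132 CPM with LTα1β2 and 84.4 and 95.7 CPM with vehicle (0.53, SE 0.13, adjusted p = 0.0233). Ndufa9, an accessory subunit, rose by 0.33 (SE 0.09), as did Ndufa1, the nuclear complex I gene with the highest level per length (0.32, SE 0.10). Ndufs1, the largest subunit of the same arm, was at 94.4 and 96.0 CPM with LTα1β2 and 102 and 99.2 CPM with vehicle and did not pass (adjusted p = 0.569).

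The 4 subunits of complex II, which is wholly nuclear-encoded, did not move alike. Sdhb, the iron-sulfur subunit, had 270 and 275 CPM with LTα1β2 and 169 and 177 CPM with vehicle, a rise of 0.66 (SE 0.10, adjusted p = 0.00306). Sdhd, a membrane anchor, had 198 and 196 CPM with LTα1β2 and 140 and 162 CPM with vehicle (0.38, SE 0.10, adjusted p = 0.0322). Sdha, the flavoprotein that oxidises succinate, had 399 and 405 CPM with LTα1β2 and 384 and 402 CPM with vehicle. Its groups overlapped, and neither Sdha (0.03, SE 0.09) nor the other anchor Sdhc (0.15, SE 0.10) passed. With LCL161 added, the 4 had log2 changes of 0.02 to 0.13 against LTα1β2, with adjusted p-values of 0.368 to 0.890. Against vehicle, LCL161 plus LTα1β2 gave 280 and 315 CPM for Sdhb (0.78, SE 0.10, adjusted p = 0.00053) and 194 and 207 CPM for Sdhd (0.41, SE 0.10, adjusted p = 0.0169), and Sdha (0.08) and Sdhc (0.20) did not pass.

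In complex III, LTα1β2 raised Uqcrc2, a core protein (0.32, SE 0.09, adjusted p = 0.0412), and Uqcrfs1, the Rieske iron-sulfur protein (0.33, SE 0.09, adjusted p = 0.0428). The other core protein, Uqcrc1, had 346 and 351 CPM with LTα1β2 and 323 and 360 CPM with vehicle, and its groups overlapped. Uqcr11, the nuclear complex III gene with the highest level per length, also overlapped, with 124 and 118 CPM with LTα1β2 and 120 and 116 CPM with vehicle. In complex V, Atp5h, a subunit of the peripheral stalk, rose by 0.34 (SE 0.09), and the membrane subunits Atp5j2 (0.32, SE 0.09) and Atp5k (0.44, SE 0.12) rose too, with adjusted p-values of 0.0283, 0.0338 and 0.0289. Atp5md, another small membrane subunit, stood at 0.00 (SE 0.13) with overlapping groups.

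In complex IV, 5 of the 11 nuclear genes rose with LTα1β2. Cox8a, a small subunit that lies in the membrane and has the highest level per length among nuclear complex IV genes, had 209 and 215 CPM with LTα1β2 and 141 and 128 CPM with vehicle (0.66, SE 0.09, adjusted p = 0.00251). Cox7b, another small membrane subunit, had 115 and 113 CPM with LTα1β2 and 81.4 and 74.3 CPM with vehicle (0.55, SE 0.09, adjusted p = 0.0059). Cox5a, which faces the matrix, had 107 and 113 CPM with LTα1β2 and 79.9 and 73.5 CPM with vehicle (0.52, SE 0.10, adjusted p = 0.00762). In these 3 genes both LTα1β2 libraries were above both vehicle libraries, as in 10 of the 11 nuclear complex IV genes and 29.6% of all genes. The median of the 11 was 0.33, against -0.04 for all genes.

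**Figure D3:**
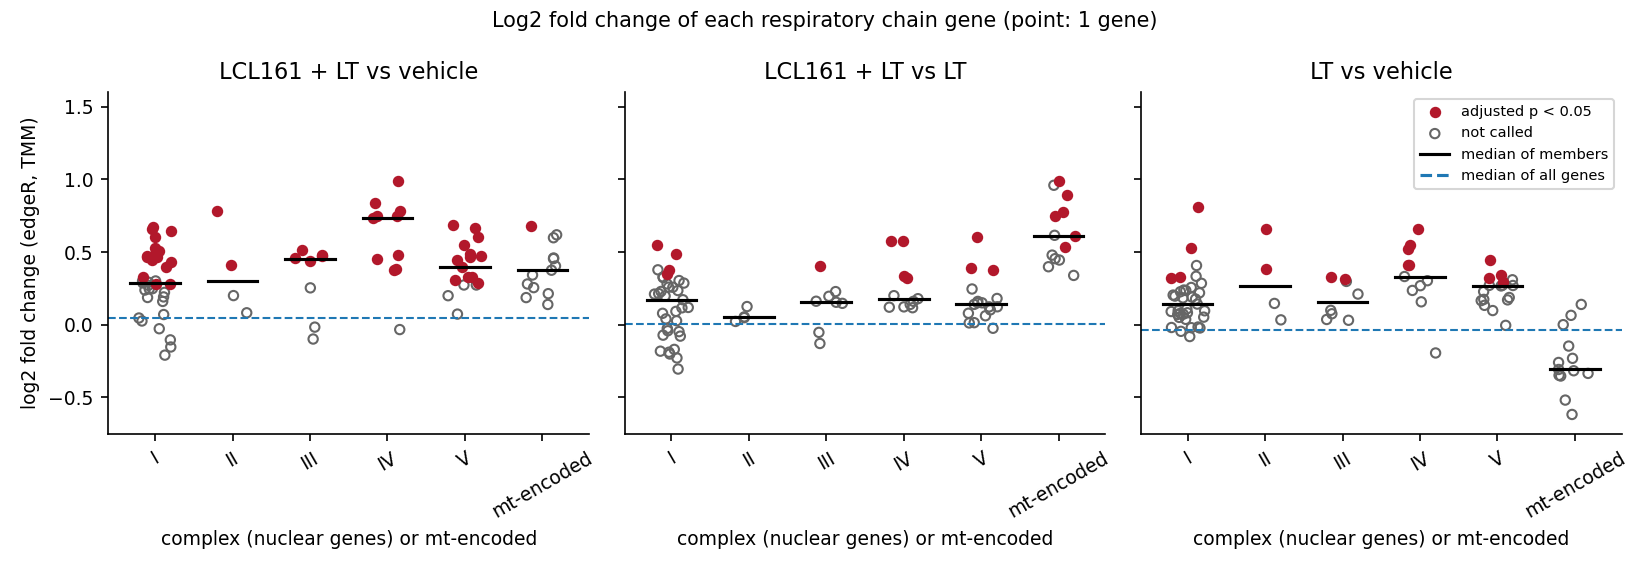
Log2 fold change of each gene by complex in the 3 comparisons (edgeR, TMM scaling), filled where the adjusted p was under 0.05, with the median of the members as a black bar and that of all genes as a dashed line. Nuclear complex IV has the highest median with LCL161 plus LTα1β2 against vehicle (0.73), and the mitochondrial-encoded genes have a median of 0.61 with LCL161 plus LTα1β2 against LTα1β2 and of -0.31 with LTα1β2 against vehicle.

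Adding LCL161 to LTα1β2 raised 12 nuclear genes and lowered 0 (edgeR, adjusted p under 0.05), with 0 lower by DESeq2 and limma voom and 1 lower at an unadjusted p under 0.05. That is 16.0% of the 75, against 25.7% of all genes called in either direction (10.6% higher, 15.1% lower). Their median log2 change was 0.15, against 0.00 for all genes. Under total counts 5 rose and 3 fell, the complex I core subunits Ndufs3, Ndufs7 and Ndufs8. The 5 that rose under both scalings were Cox7a2, Cox7c, Ndufb3, Ndufc2 and Atp5md. The count fell to 3 without LCL161 plus LTα1β2 replicate 1, 6 without its replicate 2 (4 higher and 2 lower), 3 without LTα1β2 replicate 1, 1 without LTα1β2 replicate 2 and 7 without either vehicle library.

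The 12 were 4 genes of complex I, 1 of complex III, 4 of complex IV and 3 of complex V. Cox7a2, a membrane subunit of complex IV, had 174 and 161 CPM with LCL161 plus LTα1β2 and 112 and 114 CPM with LTα1β2 (0.57, SE 0.09, adjusted p = 0.00423). Cox7c, of the same kind, had 122 and 104 CPM with LCL161 plus LTα1β2 and 78.7 and 72.9 CPM with LTα1β2 (0.58, SE 0.12, adjusted p = 0.0121), and Cox6b1, on the intermembrane side, rose by 0.34 (SE 0.09, adjusted p = 0.0263). In all 11 nuclear complex IV genes both libraries with LCL161 were above both with LTα1β2 alone, as in 33.7% of all genes, although 4 of the 11 passed the test.
Ndufc2, in the membrane arm of complex I, had 74.0 and 66.9 CPM with LCL161 plus LTα1β2 and 51.6 and 44.6 CPM with LTα1β2 (0.55, SE 0.11, adjusted p = 0.0115). The complex I subunits Ndufb3 (0.48, SE 0.10) and Ndufa5 (0.37, SE 0.10) rose as well. Atp5md had 111 and 92.5 CPM with LCL161 plus LTα1β2 and 67.1 and 66.7 CPM with LTα1β2 (0.61, SE 0.13, adjusted p = 0.0144), the largest rise in complex V. Atp5j, of the peripheral stalk (0.39, SE 0.09), Atp5l, of the membrane part (0.38, SE 0.10), and Uqcrb, a small complex III subunit (0.40, SE 0.09), also rose.

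The nuclear core subunits of complex I carry the flavin, the iron-sulfur clusters and part of the ubiquinone site. Of these 7, 6 had a negative log2 change when LCL161 was added, and Ndufv2 (0.17) was the one with a positive change. Of all genes, 50.4% had a positive change. The median of the 7 was -0.17, and none passed (adjusted p-values of 0.0902 to 0.575). At an unadjusted p under 0.05, 1 of the 7 was lower. Of the 28 accessory subunits, 4 rose, with a median of 0.22. Ndufs3, the gene most raised by LTα1β2, had 56.0 and 67.7 CPM with LCL161 plus LTα1β2 and 75.2 and 77.6 CPM with LTα1β2 (-0.30, SE 0.12, adjusted p = 0.0902). Ndufs7 had 98.4 and 123 CPM with LCL161 plus LTα1β2 and 128 and 132 CPM with LTα1β2 (-0.23, SE 0.13, adjusted p = 0.226). Both genes were lower in replicate 1 than in replicate 2 of LCL161 plus LTα1β2. The difference between core and accessory genes was not tested. LTα1β2 against vehicle and LCL161 plus LTα1β2 against LTα1β2 use the same LTα1β2 libraries with opposite sign. Their changes, such as those of Ndufs3, are therefore not independent.

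Over both steps, LCL161 plus LTα1β2 against vehicle, 46 nuclear genes rose and 0 fell, also at an unadjusted p under 0.05 and by DESeq2 and limma voom. The 46 are 61.3% of the 75 against 39.5% of all genes called in either direction (18.4% higher, 21.1% lower). The median log2 change was 0.39, against 0.05 for all genes, and 64 of the 75 had both treated libraries above both vehicle libraries (all genes, 38%). Under total counts 12 rose and 7 fell, with a median of 0.07. Those 12 were Cox5a, Cox6b1, Cox7a2, Cox7b, Cox7c, Cox8a, Ndufa1, Ndufa5, Ndufb3, Sdhb, Atp5j and Atp5k. The 7 that fell under total counts were Ndufs1, Ndufs8, Ndufv1, Ndufa12, Ndufb11, Uqcrc1 and Ndufa4, none of which passed on the TMM scale. The count was 25 without LCL161 plus LTα1β2 replicate 2, 21 without vehicle replicate 1 and 18 without vehicle replicate 2. This comparison shares its libraries with both steps, and the steps share the LTα1β2 libraries, so their counts are not independent.

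By complex, 16 of 35 complex I genes, 2 of 4 in complex II, 5 of 8 in complex III, 10 of 11 in complex IV and 13 of 17 in complex V rose. Their median log2 changes were 0.29, 0.30, 0.45, 0.73 and 0.40 on the TMM scale. Under total counts 3 rose and 5 fell in complex I, 1 rose in complex II, 1 fell in complex III, 6 rose and 1 fell in complex IV and 2 rose in complex V, with medians of -0.03, -0.01, 0.14, 0.42 and 0.08 against -0.26 for all genes. Cox7a2 led all nuclear members, with 174 and 161 CPM with LCL161 plus LTα1β2 and 87.2 and 82.1 CPM with vehicle, close to a doubling (1.98-fold, log2 change 0.99, SE 0.10, adjusted p = 0.000132). Cox5a (0.84, SE 0.10) and Cox6b1 (0.75, SE 0.09) followed with adjusted p-values of 0.000329 and 0.000354, and Cox8a rose by 0.78 (SE 0.09). Cox4i1, the largest nuclear subunit, had 280 and 303 CPM with LCL161 plus LTα1β2 and 218 and 228 CPM with vehicle, a smaller rise (0.39, SE 0.09, adjusted p = 0.014).

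In complex I the best supported rises were those of Ndufa5 (0.66, SE 0.10), Ndufb3 (0.67, SE 0.10) and Ndufa1 (0.60, SE 0.10). Ndufb3 had 54.6 and 55.7 CPM with LCL161 plus LTα1β2 and 35.4 and 33.7 CPM with vehicle, without overlap. Ndufb11, an accessory subunit of the membrane arm, was the lowest nuclear member in this comparison, with 34.5 and 36.4 CPM with LCL161 plus LTα1β2 and 42.7 and 39.2 CPM with vehicle (-0.21, SE 0.11, adjusted p = 0.153). In complex III, Uqcrc2 (0.51, SE 0.09), Uqcrb (0.48, SE 0.09) and Uqcrfs1 (0.47, SE 0.09) rose. Uqcrc1 overlapped, with 289 and 348 CPM with LCL161 plus LTα1β2 and 323 and 360 CPM with vehicle (-0.10, SE 0.12).

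Within ATP synthase on the TMM scale, all 5 genes of the membrane part and all 4 of the peripheral stalk rose over both steps. So did 3 of 5 in the catalytic head and 1 of 3 in the c ring, against 18.4% of all genes called higher. Under total counts 2 complex V genes rose, Atp5k of the membrane part and Atp5j of the peripheral stalk. The difference between these parts was not tested. Atp5k had 39.4 and 42.0 CPM with LCL161 plus LTα1β2 and 26.5 and 24.0 CPM with vehicle (0.69, SE 0.12, adjusted p = 0.00243). Atp5j had 198 and 197 CPM with LCL161 plus LTα1β2 and 126 and 123 CPM with vehicle (0.66, SE 0.09, adjusted p = 0.000661), and Atp5l rose by 0.55 (SE 0.10). Atp5b, the catalytic beta subunit and the highest nuclear member per length (540 CPM per kilobase over the 6 libraries), had 1096 and 1152 CPM with LCL161 plus LTα1β2 and 937 and 924 CPM with vehicle and did not pass (0.27, SE 0.10, adjusted p = 0.0596).
Atp5g1, Atp5g2 and Atp5g3 encode the same mature c subunit behind different import signals, so reads could be split among them. Atp5g3 rose (0.31, SE 0.10, adjusted p = 0.044) but stood at -0.01 under total counts, and Atp5g1 (0.27, SE 0.09, adjusted p = 0.0501) and Atp5g2 (0.07, SE 0.11) did not pass. Atp5g3 made up 53.4% and 53.3% of c ring counts with LCL161 plus LTα1β2, 53.1% and 54.3% with LTα1β2, and 52.7% and 51.1% with vehicle. The share of Atp5g2 was the lowest of the 3 in every library and at most 12.4%.

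Ndufa4, in the outer part of complex IV, had 108 and 117 CPM with LCL161 plus LTα1β2, 102 and 99.3 CPM with LTα1β2, and 118 and 112 CPM with vehicle. It passed in no comparison on the TMM scale (-0.03, SE 0.09, for LCL161 plus LTα1β2 against vehicle and -0.19, SE 0.09, for LTα1β2 against vehicle), and under total counts it fell in both of those (-0.39, adjusted p = 0.0196, for LTα1β2 against vehicle). Its share of the counts of the 11 nuclear complex IV genes does not depend on the scaling. That share was 5.70% and 6.05% with LCL161 plus LTα1β2, 6.31% and 6.07% with LTα1β2, and 8.96% and 8.95% with vehicle. Both treated groups were below vehicle, and LCL161 plus LTα1β2 lay just below LTα1β2. Ndufa4 was picked as the nuclear complex IV gene that passed in no comparison, and the other 10 rose over both steps. A lower share with LCL161 plus LTα1β2 than with vehicle therefore follows from that choice.
AA467197, on chromosome 2 and outside the rule, encodes the Ndufa4 paralog Nmes1, whose human counterpart is known to take the place of NDUFA4 in complex IV. It was chosen after its values were seen. It had 1134 and 1034 counts with LCL161 plus LTα1β2, 293 and 311 with LTα1β2, and 9 and 10.5 with vehicle. It rose by 5.20 (SE 0.18, adjusted p = 2.66e-06) with LTα1β2 against vehicle, by 2.20 (SE 0.12, adjusted p = 4.64e-05) with LCL161 plus LTα1β2 against LTα1β2, and by 7.39 (SE 0.18, adjusted p = 2.71e-07) over both steps. Per kilobase of transcript, AA467197 stood at 104 CPM in replicate 1 of LCL161 plus LTα1β2, where Ndufa4 stood at 177 CPM. With vehicle it stood at 0.526 and 0.682 CPM per kilobase, against 193 and 184 for Ndufa4. The microRNA gene Mir147 lies within an exon of AA467197, and reads of the host and of the microRNA precursor cannot be told apart.

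**Figure D4:**
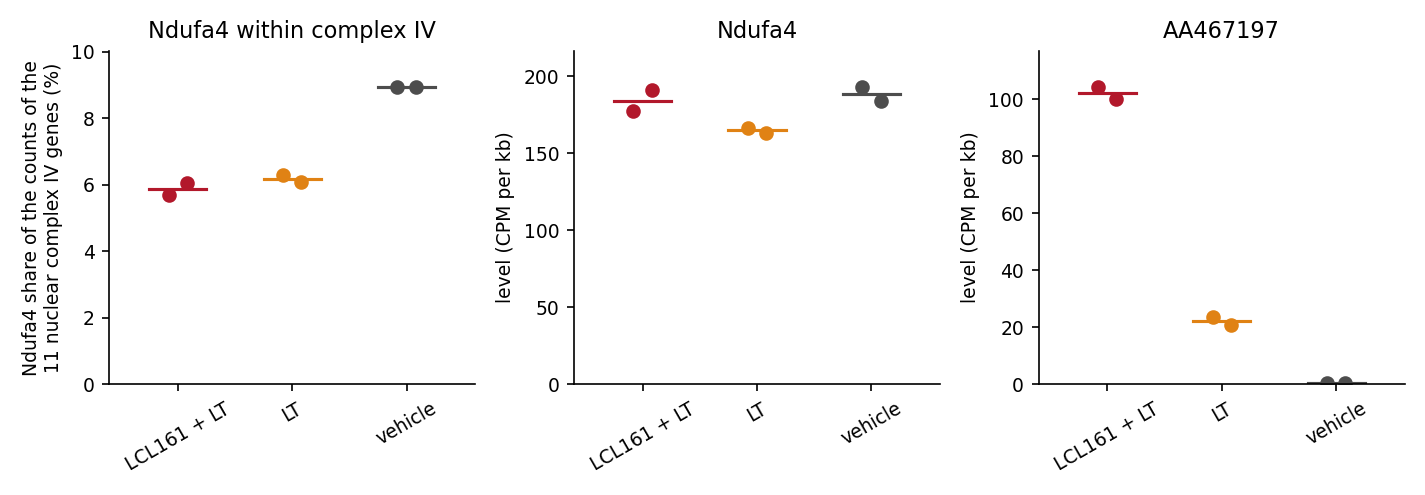
Share of Ndufa4 in the counts of the 11 nuclear complex IV genes (left, percent), and the levels of Ndufa4 (middle) and of its paralog AA467197 (right) in CPM per kilobase of transcript, by library, with group means of 2 as lines. The share is near 6% in the 4 treated libraries and near 9% in both vehicle libraries, while AA467197 is above 20 in every treated library and below 1 with vehicle.

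The 13 mitochondrial-encoded genes were mostly on the negative side with LTα1β2. Against vehicle 0 were called (edgeR), 1 was lower at an unadjusted p under 0.05, DESeq2 called 1 and limma voom 0. Of the 13, 10 had a negative log2 change, with a median of -0.31 against 0.20 for the nuclear genes and -0.04 for all genes. All 7 complex I genes were negative, from -0.62 for mt-Nd3 to -0.15 for mt-Nd5, as were mt-Cytb (-0.26), mt-Atp6 (-0.35) and mt-Atp8 (-0.23), while mt-Co1 (0.14), mt-Co2 (0.00) and mt-Co3 (0.06) were not. Under total counts mt-Nd2 fell and the median was -0.50.

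Adding LCL161 to LTα1β2 raised 6 of the 13, namely mt-Nd1, mt-Nd2, mt-Nd4, mt-Nd5, mt-Nd6 and mt-Atp6, and lowered none, 46.2% against the 10.6% of all genes called higher. The median log2 change was 0.61, and 0.49 under total counts, where mt-Nd2 and mt-Nd6 passed. These changes and those of LTα1β2 against vehicle use the same LTα1β2 libraries with opposite sign and are not independent. In all 7 complex I genes both LCL161 plus LTα1β2 libraries were above both LTα1β2 libraries, as in 33.7% of all genes. Mt-Nd6, the one protein gene read from the light strand of mitochondrial DNA, had 77.3 and 46.9 CPM with LCL161 plus LTα1β2 and 31.4 and 31.3 CPM with LTα1β2 (0.99, SE 0.21, adjusted p = 0.0131). Mt-Nd2, a membrane-arm subunit, had 76.5 and 53.8 CPM with LCL161 plus LTα1β2 and 36.4 and 33.8 CPM with LTα1β2 (0.89, SE 0.17, adjusted p = 0.0076). The 2 libraries with LCL161 differed from each other in both genes, replicate 1 being the higher. Mt-Nd1 (0.61, SE 0.16), mt-Nd4 (0.78, SE 0.22), mt-Nd5 (0.74, SE 0.21) and mt-Atp6 (0.53, SE 0.16) had adjusted p-values of 0.0281 to 0.0423. Mt-Nd3, the lowest of the 13 per length, had a large change with a wide error (0.96, SE 0.35, adjusted p = 0.0819), and mt-Nd4l (0.61, SE 0.22) and mt-Atp8 (0.44, SE 0.16) did not pass either.

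The mitochondrial genes of complexes III and IV, which hold their catalytic centres, did not pass. Mt-Co1, the haem-copper subunit, had 1848 and 1301 CPM with LCL161 plus LTα1β2, 962 and 1297 CPM with LTα1β2, and 1166 and 885 CPM with vehicle. Its change was 0.48 (SE 0.22, adjusted p = 0.142) with LCL161 plus LTα1β2 against LTα1β2. Mt-Co2 (0.45, SE 0.24), mt-Co3 (0.34, SE 0.21) and mt-Cytb (0.40, SE 0.22) did not pass. Per kilobase, mt-Co3 and mt-Co1 were the highest members of all, at 828 and 805 CPM over the 6 libraries, and mt-Nd3 stood at 25.5 CPM.

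The mitochondrial-encoded genes differed between libraries of one group more than the nuclear ones. In all 13 genes replicate 1 of LCL161 plus LTα1β2 was above replicate 2 (median log2 difference 0.51), and in all 13 vehicle replicate 1 was above vehicle replicate 2 (0.33), whereas LTα1β2 replicate 1 was the higher in 5 of 13 (-0.12). The corresponding medians over the 75 nuclear genes were -0.08, 0.03 and 0.02 with LCL161 plus LTα1β2, vehicle and LTα1β2. The ratio of mitochondrial-encoded to nuclear respiratory chain counts, which no scaling touches, was 0.563 and 0.379 with LCL161 plus LTα1β2, 0.329 and 0.394 with LTα1β2, and 0.503 and 0.391 with vehicle, and all 3 groups overlapped. Without LCL161 plus LTα1β2 replicate 1, 2 mitochondrial genes rose with LCL161, without its replicate 2 it was 9, and without LTα1β2 replicate 1 or replicate 2 it was 1 each. Against vehicle, LCL161 plus LTα1β2 raised 1 of the 13, mt-Nd6 (0.68, SE 0.21, adjusted p = 0.0357), 7.69% against 39.5% of all genes called. That count was 0 without LCL161 plus LTα1β2 replicate 1, LTα1β2 replicate 2 or either vehicle library, 3 without LTα1β2 replicate 1 and 4 without LCL161 plus LTα1β2 replicate 2. The summed level of the mitochondrial ribosomal RNAs mt-Rnr1 and mt-Rnr2 was 441 to 688 CPM with LCL161 plus LTα1β2, 341 to 346 CPM with LTα1β2 and 330 to 390 CPM with vehicle. What differed between replicates was not tested.

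**Figure D5:**
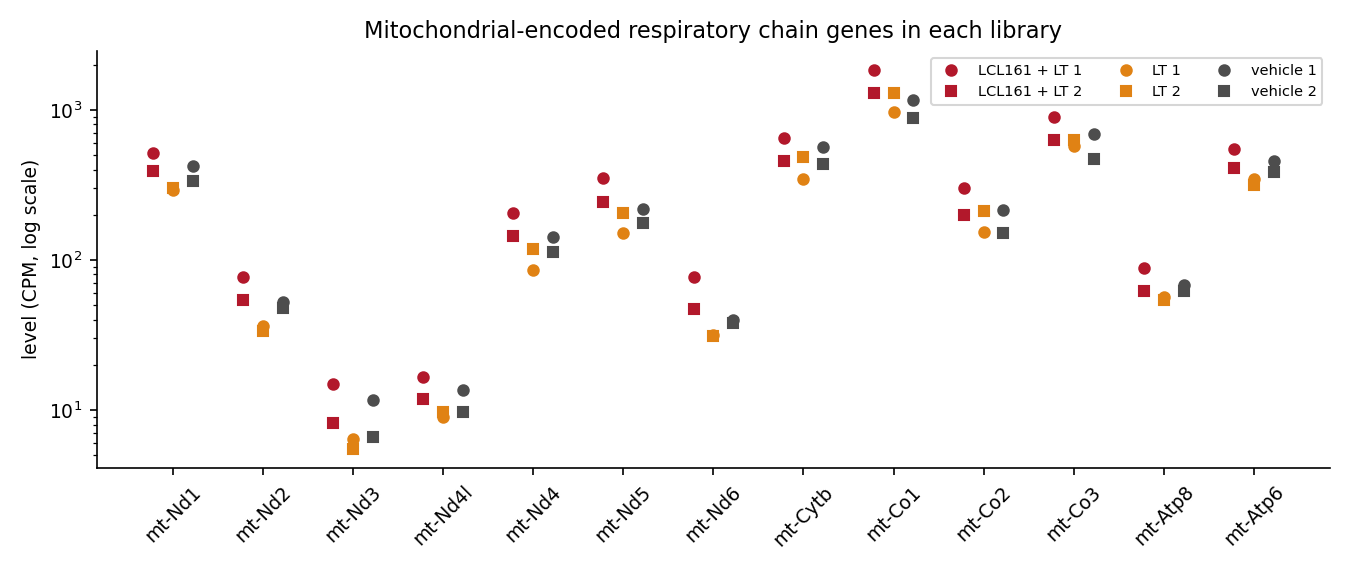
Level of each mitochondrial-encoded gene in each library (CPM scaled by TMM factors, log axis), with circles for replicate 1 and squares for replicate 2. Replicate 1 is above replicate 2 for all 13 genes with LCL161 plus LTα1β2 and with vehicle, and LTα1β2 libraries are the lowest for most complex I genes.

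Genes that build the complexes were listed apart from the subunits. Of 23 complex IV assembly genes, 3 rose with LTα1β2 against vehicle and none fell, and 5 rose and 3 fell when LCL161 was added. Of all genes, 12.8% rose with LTα1β2, and 10.6% rose and 15.1% fell when LCL161 was added. Under total counts those numbers were 1 and 0, and 2 and 4. Coa5, needed for early complex IV assembly, was the largest, with 683 and 691 CPM with LCL161 plus LTα1β2, 515 and 496 CPM with LTα1β2, and 170 CPM in both vehicle libraries. It rose by 1.57 (SE 0.09) with LTα1β2 against vehicle and by 0.44 (SE 0.09) with LCL161 added, and 2.02 (SE 0.09) over both. Cox17, the copper chaperone of complex IV, rose by 0.76 (SE 0.11) when LCL161 was added, and Cmc1, which stabilises newly made COX1, by 0.51 (SE 0.13). Cmc1 did not pass in that step under total counts (adjusted p = 0.0565).

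Of 15 complex I assembly genes, Ndufaf7 (-0.84, SE 0.14) and Ndufaf4 (-0.70, SE 0.17) fell with LTα1β2 against vehicle, and Ndufaf3 rose with LCL161 added (0.72, SE 0.17). Under total counts 0 rose and 4 fell in the comparison with vehicle, and 1 rose and 2 fell with LCL161 added. The TMM calls were 13.3% and 6.67% of the 15 in these comparisons, against 23.4% and 25.7% of all genes. Of 10 genes for complexes II and III, 1 was called over both steps, against 39.5% of all genes. It was Uqcc3, which rose (0.50, SE 0.12), where total counts gave 0 higher and 2 lower. The 4 genes for complex V had 1 lower with LTα1β2 against vehicle, 0 called with LCL161 added and 2 lower over both steps. Total counts gave 3, 1 and 3 lower. The all-gene shares called were 23.4%, 25.7% and 39.5% in that order. Tmem70, needed for ATP synthase assembly, was at 32.8 and 29.2 CPM with LCL161 plus LTα1β2, 38.0 and 36.7 CPM with LTα1β2, and 56.1 and 57.8 CPM with vehicle, and fell with LTα1β2 (-0.61, SE 0.11) and over both steps (-0.88, SE 0.11).

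Among 12 tested genes that feed or join the chain but lie outside the rule, 3 rose with LCL161 added to LTα1β2 under both scalings. With LTα1β2 against vehicle 2 rose and 1 fell (1 and 4 under total counts), and over both steps 3 rose and 2 fell (3 and 4 under total counts). With TMM, 41.7% of the 12 were called over both steps, against 39.5% of all genes. The all-gene shares called were 25.7% with LCL161 added and 23.4% with LTα1β2 against vehicle, and those of the 12 were close to these. Gpd2, the mitochondrial glycerol-3-phosphate dehydrogenase that passes electrons to ubiquinone, had 169 and 171 CPM with LCL161 plus LTα1β2, 82.5 and 91.0 CPM with LTα1β2, and 41.3 and 40.0 CPM with vehicle. It rose by 0.97 (SE 0.10) with LCL161 added and by 1.09 (SE 0.10) with LTα1β2 against vehicle, and the groups did not overlap. Cycs, cytochrome c, rose by 0.46 (SE 0.09) and 0.33 (SE 0.09) in the same steps, the second of which did not pass under total counts (adjusted p = 0.352). Sqor, which passes electrons from sulfide to ubiquinone, rose by 0.76 (SE 0.14) with LCL161 added. Etfb, a subunit of the electron transfer flavoprotein, fell with LTα1β2 against vehicle (-0.52, SE 0.13) and over both steps (-0.62, SE 0.13), and Etfdh, which passes its electrons to ubiquinone, fell over both steps (-0.36, SE 0.10).

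The mitochondrial ribosome translates the 13 mitochondrial messages. Of its 78 genes 8 rose and 3 fell with LCL161 added, and 3 rose and 2 fell with LTα1β2 against vehicle. Over both steps 10 rose and 5 fell, with a median of 0.04. The calls were 14.1%, 6.41% and 19.2% of the 78, against 25.7%, 23.4% and 39.5% of all genes. Under total counts 4 rose and 5 fell with LCL161 added, 1 rose and 8 fell with LTα1β2 against vehicle, and 3 rose and 22 fell over both steps, with a median of -0.27. Of 25 genes for mitochondrial DNA and RNA, Polrmt, the mitochondrial RNA polymerase, fell with LCL161 added (-0.53, SE 0.14), as did Polg, the DNA polymerase (-0.37, SE 0.11), and Hsd17b10, a subunit of mitochondrial RNase P, rose (0.48, SE 0.11). Total counts gave 1 higher and 3 lower in that step, and 0 and 10 over both steps, where TMM gave 2 and 4. Of 19 genes of the tricarboxylic acid cycle and its entry steps, 5 rose and 6 fell over both steps (1 and 9 under total counts). With TMM that is 57.9% of the 19 called over both steps, against 39.5% of all genes. Idh2 fell by 1.18 (SE 0.09) and Idh3a by 0.83 (SE 0.09) on the log2 scale. Both encode isocitrate dehydrogenase subunits, of which Idh3g also fell (-0.43) and Idh3b rose (0.35), the last not passing under total counts (adjusted p = 0.770). Pcx, pyruvate carboxylase, rose by 1.80 (SE 0.16).

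Of 11 regulators of mitochondrial biogenesis, 2 rose and 4 fell over both steps, and 2 and 6 under total counts. With TMM that is 54.5% of the 11, against 39.5% of all genes called. Ppargc1b, a coactivator of respiratory chain genes, had 9.85 and 10.8 CPM with LCL161 plus LTα1β2, 7.91 and 10.1 CPM with LTα1β2, and 3.47 and 3.13 CPM with vehicle, a rise of 1.45 (SE 0.19) with LTα1β2 against vehicle. Its partner receptor Esrra rose by 0.72 (SE 0.13) in that step. Pparg fell by 3.07 (SE 0.18) over both steps and Myc by 1.41 (SE 0.17). Gabpa, which binds the motif CCGGAAG, averaged 48.1 ± 1.15 CPM with LCL161 plus LTα1β2, 49.2 ± 1.13 CPM with LTα1β2 and 64.1 ± 0.514 CPM with vehicle (SD, n = 2 each), and fell with LTα1β2 against vehicle (-0.38, SE 0.09, adjusted p = 0.0239). Nrf1 stood at -0.38 (SE 0.10, adjusted p = 0.0204) over both steps. Gabpa and Nrf1 were named for their motifs, after their values were seen.

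How reads were counted limits single members. Counts in the table were whole numbers (within 0.005) in all 6 libraries for 12 nuclear members and in none for 17 members, 11 nuclear and 6 mitochondrial, among them Cox5a, Cox7c, Atp5b, Atp5h and mt-Nd4. Fractional counts can arise where a read is shared among genes. Of the 12 whole members, 9 rose with LCL161 plus LTα1β2 against vehicle, 2 with LCL161 plus LTα1β2 against LTα1β2 and 3 with LTα1β2 against vehicle. Of 47 nuclear members that overlap no annotated exon of another gene, 30, 7 and 13 rose in the same order (63.8%, 14.9% and 27.7%). The all-gene shares called higher were 18.4%, 10.6% and 12.8% in that order. Both sets of counts are given on the TMM scale only. On the mitochondrial genome, mt-Nd4 overlaps mt-Nd4l and mt-Atp6 overlaps mt-Atp8 and mt-Co3, so their reads cannot be fully told apart. Mt-Nd6 overlaps mt-Nd5 on the opposite strand, and whether reads were counted by strand is not given.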

How the data were processed

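RNA sequencing of 6 macrophage libraries in 3 groups of 2 was analysed, grouped by sample title. The deposited table holds the authors' expected counts per gene symbol, of which 66.6% of non-zero values are whole. The submitters' processing notes name STAR 2.7.3a, DESeq2 1.26.0 and the build GRCm38. The sources used here do not give the counting program, the annotation or the strand setting.

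Counts were rounded to whole numbers, filtered with filterByExpr, scaled with TMM factors and fitted in edgeR 4.0.16 (R 4.3.3) with glmQLFit and glmQLFTest, two-sided, over all 6 libraries with no covariate. Benjamini-Hochberg adjustment ran over the 18812 genes tested, with calls under 0.05. The fit had 3 residual degrees of freedom and a biological coefficient of variation of 13.6%. Standard errors (SE) were derived from the F statistics. Library totals ran between 14718368 and 19049613 counts. The scripts were tested on simulated data. Alternatives were DESeq2 1.42.0, limma 3.58.1 (voom), other scalings and filters, only the groups compared, a replicate block and leaving out each library. Gene positions are those of GENCODE M21 (GRCm38) for the 86 of 88 members with 1 matching symbol, and promoters are those of RefSeq (GRCm38.p6). Levels per kilobase use the principal transcript.

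The members, the 12 pathway lists and the 9 marker lists were chosen with earlier results of these data known. Named were all mitochondrial-encoded and complex II genes and the c ring paralogs. In the other complexes the gene highest per length, the best supported calls and the extremes of each comparison were named. Up to 3 called genes per comparison were named from each other list, with a few more such as Idh3g. Members that passed under total counts were also named, after their values were seen. Of the 325 list genes, 2 are not in the table.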

Additional observations from a re-analysis of the deposited data

How the results depend on the processing

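Scaling by total counts moved most results. It gave nuclear medians of 0.073 for LCL161 plus LTα1β2 against vehicle, 0.030 for LCL161 plus LTα1β2 against LTα1β2 and 0.014 for LTα1β2 against vehicle, with 19, 8 and 7 nuclear and 0, 2 and 1 mitochondrial calls, and turned Atp5g3 to -0.0075 in the first. It moved the all-gene median as well. Keeping every gene with a read gave nuclear medians of 0.33, 0.013 and 0.29 with 34, 5 and 22 nuclear and 6, 8 and 1 mitochondrial calls. A filter at 1 CPM gave nuclear medians of 0.44 and 0.20 in the first 2 comparisons and 3 mitochondrial calls in the first. DESeq2 called 3, 6 and 1 mitochondrial genes, and limma voom 2, 6 and 0. Fitting only the groups compared gave 26 nuclear and 1 mitochondrial call for LTα1β2 against vehicle, and 0 mitochondrial calls for LCL161 plus LTα1β2 against vehicle. The causes were not tested. Relative log expression factors gave 46, 13 and 17 nuclear calls. Of the named calls, 17, 16 and 14 in the 3 comparisons, 6, 9 and 8 did not pass under total counts.

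With a replicate block, 43, 10 and 11 nuclear and 1, 5 and 1 mitochondrial genes were called. Deviations of libraries with the same number correlated at 0.157 between LCL161 plus LTα1β2 and LTα1β2, 0.0941 between LCL161 plus LTα1β2 and vehicle and 0.138 between LTα1β2 and vehicle, and with 2 numbers they do not show pairing.

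Leaving out each library in turn gave ranges in the order LCL161 plus LTα1β2 against vehicle, LCL161 plus LTα1β2 against LTα1β2, LTα1β2 against vehicle. Genes called ran from 4885 to 7285, 2332 to 4604 and 1930 to 4933. Nuclear calls ran from 18 to 40, 1 to 7 and 4 to 18, and mitochondrial calls from 0 to 4, 1 to 9 and 0 to 1. Nuclear medians ran from 0.24 to 0.42, 0.041 to 0.17 and 0.20 to 0.30, and mitochondrial medians from 0.083 to 0.58, 0.33 to 0.73 and -0.44 to -0.15. A group left with 1 library is assumed to vary like the others. With 2 libraries a group and a coefficient of variation of 13.6%, small changes of single subunits could not be resolved, and a member that did not pass is not shown to be unchanged.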

Other observations

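Ubiquinone, the carrier between complexes I or II and complex III, has its own synthesis genes. Of 13, 3 rose and 1 fell with LCL161 added to LTα1β2, and 3 rose and 1 fell with LTα1β2 against vehicle. Over both steps 2 rose and 1 fell. These calls were 30.8%, 30.8% and 23.1% of the 13, against 25.7%, 23.4% and 39.5% of all genes. Total counts gave 2 higher and 3 lower, 2 and 2, and 2 and 5. Coq8a, an atypical kinase needed for the pathway, averaged 19.5 ± 0.985 CPM with LCL161 plus LTα1β2, 8.51 ± 0.692 CPM with LTα1β2 and 6.83 ± 0.888 CPM with vehicle (SD, n = 2 each), and rose by 1.20 (SE 0.15) when LCL161 was added. Coq10a, which binds ubiquinone, averaged 4.02 ± 1.56 CPM with LCL161 plus LTα1β2, 11.6 ± 0.112 CPM with LTα1β2 and 2.43 ± 0.230 CPM with vehicle. It rose by 2.26 (SE 0.25) with LTα1β2 and fell by 1.53 (SE 0.25) when LCL161 was added, and both changes use the same LTα1β2 libraries.

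Of 13 genes of mitochondrial dynamics and mitophagy, 2 rose and 2 fell with LCL161 added to LTα1β2, with the same counts under total counts. That is 30.8% of the 13, against 25.7% of all genes called. Bnip3, a mitophagy receptor, averaged 150 ± 10.4 CPM with LCL161 plus LTα1β2, 79.3 ± 0.348 CPM with LTα1β2 and 68.4 ± 0.461 CPM with vehicle, and rose by 0.92 (SE 0.10) in that step. Dnm1l, the fission GTPase, rose by 0.89 (SE 0.10), and Pink1, a kinase that marks damaged mitochondria, fell by 1.16 (SE 0.21). Over both steps 3 rose and 2 fell, and 2 and 4 under total counts. The TMM calls there were 38.5% of the 13, against 39.5% of all genes. Fis1 alone was called with LTα1β2 against vehicle (0.43, SE 0.12), where it did not pass under total counts (adjusted p = 0.134). In that comparison 7.69% of the 13 were called, against 23.4% of all genes.

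Of 10 macrophage markers, 4 were higher and 2 lower with LCL161 plus LTα1β2 against vehicle, 3 higher and 4 lower with LCL161 plus LTα1β2 against LTα1β2, and 7 higher and 1 lower with LTα1β2 against vehicle. Of 10 neutrophil markers, the counts were 1 and 7, 0 and 6, and 3 and 1 in the same order. Of all genes, 18.4%, 10.6% and 12.8% were called higher and 21.1%, 15.1% and 10.6% lower in this order. In that order T cell markers were called lower in 3, 1 and 1 of 5 tested genes. Dendritic cell markers were called higher in 4, 1 and 1 of 6. NK cell markers were called higher in 2, 0 and 1 of 2. Ebf1 among 5 B cell markers was lower in all 3, and Ms4a1 was higher in the first. Pf4 and Gp1bb among 4 erythroid and megakaryocyte markers were lower in both comparisons with vehicle, and Pf4 was higher when LCL161 was added. Mcpt8 among 3 mast cell and basophil markers was lower in both comparisons with vehicle. Calls of these lists that did not pass under total counts were Ms4a1, Flt3 and Siglech with LCL161 plus LTα1β2 against vehicle, the rise of Pf4, and Csf1r and Itgam with LTα1β2 against vehicle. The highest summed level in any library was 38.2 CPM for B cell, 31.0 CPM for T cell, 20.7 CPM for dendritic cell, 9.80 CPM for NK cell and 4.54 CPM for mast cell and basophil markers. Erythroid and megakaryocyte markers reached 480 CPM in a vehicle library. They averaged 253 CPM with LCL161 plus LTα1β2, 215 CPM with LTα1β2 and 451 CPM with vehicle.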
